A study of Mus musculus with 19 samples.

Results

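Common myeloid progenitors (CMP) were compared with the LSK cells that stand above them in blood formation, to describe which transcripts differ when stem and multipotent cells give way to myeloid progenitors. The CMP arrays were the 3 titled as common myeloid progenitor and the LSK arrays the 3 titled as hematopoietic stem and multipotent progenitor cells, 6 of the 19 single-colour arrays of the study. CMP were sorted as lineage-negative, cKit-positive and Sca1-negative cells with low CD16/32 and high CD34, and LSK cells as lineage-negative, cKit-positive and Sca1-positive cells. Both came from the bone marrow of C57BL/6 mice aged 8 to 12 weeks with no treatment or engineered allele named, and total RNA was hybridised to a custom Agilent mouse array that carries catalogue probes and 3 probes for each added long noncoding RNA. The labels do not say whether replicates were separate animals or pools, so p-values here measure only the spread between arrays, which may be technical. That spread was taken within cell types over all 19 arrays, not from the CMP and LSK arrays alone.

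Blood stem cells lie mostly at rest and keep a set of transcription factors (Hlf, Meis1, Mecom and several Hox genes) and surface receptors that are lost as cells commit. The LSK gate holds those stem cells together with multipotent progenitors, some of which already transcribe lymphoid genes. CMP can give rise to red cells, platelets, granulocytes and macrophages, and they divide more often. A CMP gate is a mixture of cells leaning to one fate or another, and in bulk RNA fewer cells of a type cannot be told apart from less RNA per cell.

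Levels are given as log2 of the scanner's processed signal minus the 75th percentile of the array's non-control spots. A level of 0 marks a spot as bright as that percentile. Every difference is CMP minus LSK on the log2 scale (3 against 3 arrays). Its standard error uses the spread within cell types over all 19 arrays of the study. Between 54.1% and 62.0% of spots on the CMP arrays and between 58.4% and 66.3% on the LSK arrays were well above background by the scanner's own flag. Arrays correlated across features with r of 0.986 to 0.993 within CMP, 0.980 to 0.988 within LSK and 0.945 to 0.959 between them. CMP array 1 stood apart from CMP arrays 2 and 3: the median level of the myeloid factor and receptor genes was 1.79 on it, against 2.68 and 2.66 on arrays 2 and 3, and Klf1 was at 3.34 on it, against 2.46 and 2.68. The 6 arrays lay on 4 slides, of which slide 3 and slide 4 each held 1 CMP and 1 LSK array.

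The sorted identities were checked against the genes of the gates, which are no findings between the populations. Ly6a, which encodes Sca1, was at -0.61, 0.19 and 0.33 on the CMP arrays and at 3.83, 3.49 and 3.43 on the LSK arrays. Kit, the stem cell factor receptor of both gates, was at 4.51 to 4.81 in CMP and 5.16 to 5.41 in LSK. Cd34 was at 7.07 to 7.50 in CMP and 7.77 to 7.86 in LSK, and Fcgr3, which encodes CD16, at -0.63 to 0.40 in CMP and 0.37 to 0.67 in LSK. Fcgr2b, which encodes CD32, went the other way, at 0.82 to 1.53 in CMP and 0.13 to 0.44 in LSK. Cd8a, a lineage marker, was not well above background on any of the 6 arrays, whereas the lineage markers Itgam and Cd3e were well above background in both populations, Itgam at 4.80 to 5.85 in CMP and 4.70 to 5.62 in LSK.

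In CMP, 5637 of 24174 tested features were higher (23.3%) and 3252 lower (13.5%) than in LSK, by limma with Benjamini-Hochberg adjusted p under 0.05. In all 8889 features, or 36.8%, were called. A feature is a gene, a custom noncoding transcript, a genomic region or an accession, represented by its brightest probe, and it was tested where all CMP or all LSK arrays were well above background. Changes toward lower levels in CMP were fewer but larger. Of the features higher in CMP, 1444 (25.6%) differed by 2-fold or more, and of those lower in CMP 2140 (65.8%) did. The median difference of all tested features was 0.17, and CMP and LSK arrays did not overlap for 12624 features (52.2%). Of 6053 tested accessions without a gene name, 32.6% were called, 22.7% higher and 9.83% lower.

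The split of calls depended on how arrays were put on one scale. When the percentile was computed from probes that all arrays detected, 2579 features were higher and 5395 lower in CMP (32.3% of calls higher, against 63.4% here) and the median of all features was -0.15. Quantile normalization gave 3447 higher and 3286 lower (51.2% higher), and scaling on the spike-in controls gave 769 higher and 934 lower (45.2% higher) with a median of 0.52. With the slide as a block 8747 features were called, 7860 of them shared with the 8889 and of the same sign. Of the 8889 calls, 0 turned into a call of the opposite sign under any of these settings, whereas averaging all probes of a feature in place of taking the brightest turned 7.

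**Figure D1:**
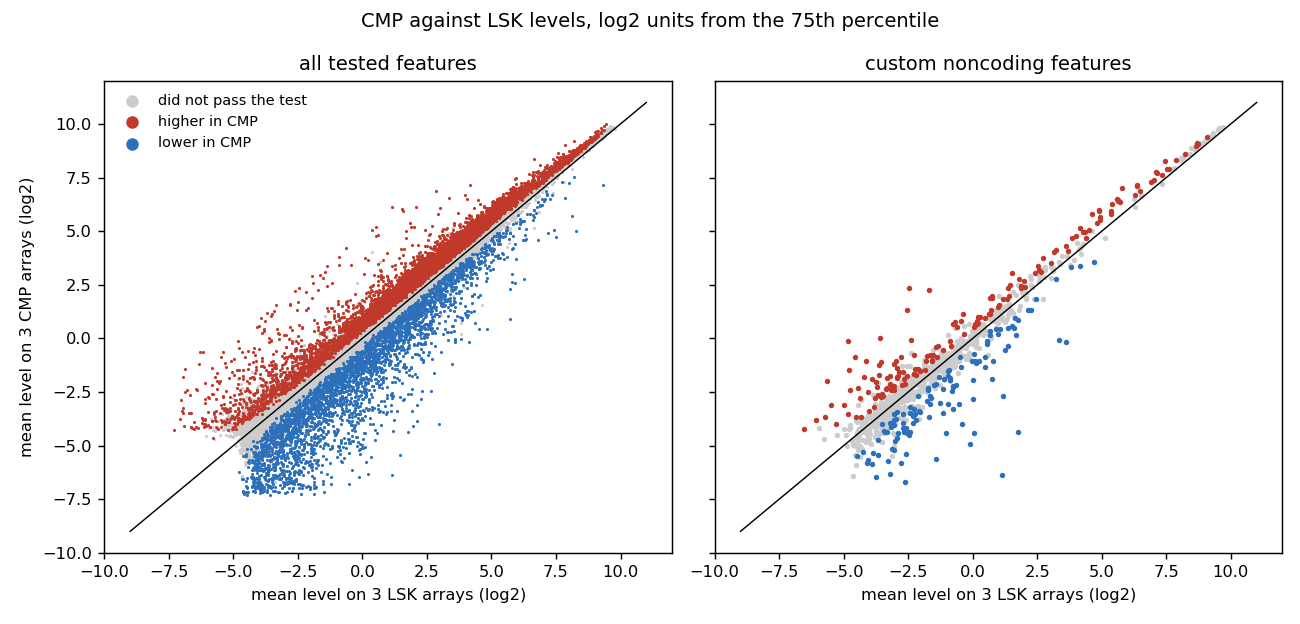
Mean level on the 3 CMP arrays (vertical axis) against the mean on the 3 LSK arrays (horizontal axis), both in log2 units from the array's 75th percentile, for the 24174 tested features (left panel) and the 947 tested custom noncoding features (right panel). Red points are higher in CMP (5637 and 161), blue points lower (3252 and 120), grey points did not pass the test, and the line marks equal levels. Blue points reach farther from the line than most red ones.

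Transcription factors of stem and early progenitor cells were lower in CMP. Of 34 tested, 21 were lower (61.8%) and 2 higher, against 16.8% lower and 26.9% higher among all 14133 tested genes, where 43.7% were called in either direction. The median difference was -1.24, and it was -1.22 between the arrays of slide 3 and -1.34 between those of slide 4. Hlf, a PAR-family factor that maintains stem cells, was at 0.63, 0.35 and 0.29 on the CMP arrays and at 4.50, 4.65 and 4.44 on the LSK arrays. The groups lay far apart, with a difference of -4.10 ± 0.38 (adjusted p = 1.35e-06). Meis1, the cofactor of Hox proteins, was at 3.89, 3.60 and 3.56 in CMP and 5.51, 5.57 and 5.38 in LSK, a smaller difference of -1.80 ± 0.23 (adjusted p = 2.14e-05). Nkx2-3, a homeobox factor, had the largest difference of the list. It was at -2.68, -3.42 and -3.28 in CMP and at 2.53, 1.94 and 1.89 in LSK (-5.25 ± 0.37, adjusted p = 9.12e-08).

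Hoxa10 and Hoxb5, members of the Hox clusters, were well above background on 2 of 3 and 1 of 3 CMP arrays, so that their differences of -4.04 ± 0.27 and -3.54 ± 0.32 rest partly on signal at background. Mn1 and Prdm16, both regulators known from stem cells and leukemia, differed by -3.68 ± 0.30 and -3.07 ± 0.20. Mecom, the zinc finger factor also known as Evi1, passed the background flag on 0 of 3 CMP and 3 of 3 LSK arrays, which puts it at least 3.58-fold lower in CMP (adjusted p = 0.000349). Such bounds set the LSK mean against the lowest signal counted as well above background on each CMP array. Gata2, needed in stem cells and in erythroid and mast cell precursors, did not pass the test: it was at 3.80, 3.12 and 3.22 in CMP and 3.27, 3.15 and 3.04 in LSK, a difference of 0.22 ± 0.19 (adjusted p = 0.391). The 2 members higher in CMP were Tal1 (0.47) and Zbtb16 (0.61), named here after their values were seen. Leaving out any single array left 0 or 1 higher, and spike-in scaling 0 higher and 13 lower. In 1 of the 21 lower members the granulocyte arrays of the study had a mean above that of LSK.

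Surface molecules of stem and early progenitor cells moved the same way: 20 of 37 tested were lower in CMP, 3 were higher, and the median was -0.97. With spike-in scaling 10 were lower and 1 higher. Procr, the protein C receptor that marks the most primitive cells, was at -1.23, -1.10 and -1.33 on CMP arrays and at 3.69, 3.11 and 3.60 on LSK arrays. That is a difference of -4.68 ± 0.25 (adjusted p = 8.42e-09). Emcn and Esam, endothelial-type adhesion proteins that stem cells share, differed by -3.56 ± 0.32 (Emcn passing the background flag on 2 of 3 CMP arrays) and -2.84 ± 0.42, and Jam3, a junctional adhesion molecule, by -2.72 ± 0.31. Fgd5, a marker of stem cells in the mouse, passed the background flag on 0 of 3 CMP arrays and was at least 6.24-fold lower in CMP (adjusted p = 0.00265). Slamf1, which encodes the stem cell marker CD150, was at -1.51, -2.70 and -2.58 in CMP and -2.20, -2.17 and -1.98 in LSK. CMP array 1 lay above and arrays 2 and 3 below every LSK array, and the difference of -0.15 ± 0.27 did not pass the test (adjusted p = 0.706).

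Lymphoid priming genes, which part of the LSK cells transcribe before lineage choice, were lower in CMP for 13 of 26 tested and higher for 0, with a median of -1.0. Dntt, the terminal transferase of antigen receptor rearrangement, was at 4.76, 4.70 and 4.73 on CMP arrays and at 7.22, 7.89 and 7.33 on LSK arrays, so CMP kept a signal well above background. Its difference was -2.75 ± 0.33 (adjusted p = 1.23e-05). Flt3, the cytokine receptor of multipotent and lymphoid progenitors, was at 4.62, 4.88 and 4.99 in CMP and 6.26, 6.33 and 6.28 in LSK (-1.46 ± 0.30, adjusted p = 0.00143). Il7r, the interleukin-7 receptor of lymphoid cells, differed by -2.34 ± 0.21, and Lck, a kinase of T cell receptor signalling, by -2.96 ± 0.12. In 6 of the 13 lower members the granulocyte mean was above the LSK mean, while Ltb, which encodes lymphotoxin beta and had the largest difference of the list (-4.83 ± 0.32), averaged 5.72 in LSK and 5.11 in granulocytes.

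The Gimap genes, a cluster of small GTPases known from lymphocyte survival, fell together. Of 8 tested, 7 were lower in CMP and 0 higher, and the list had a median of -3.02. Gimap8 was at -1.25, -1.88 and -1.75 in CMP and 2.76, 2.64 and 2.89 in LSK (-4.39 ± 0.31), and Gimap6 was at 2.51, 2.10 and 2.27 in CMP and 5.96, 5.77 and 5.44 in LSK (-3.43 ± 0.27). The granulocyte mean was above the LSK mean for 1 of the 7.

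**Figure D2:**
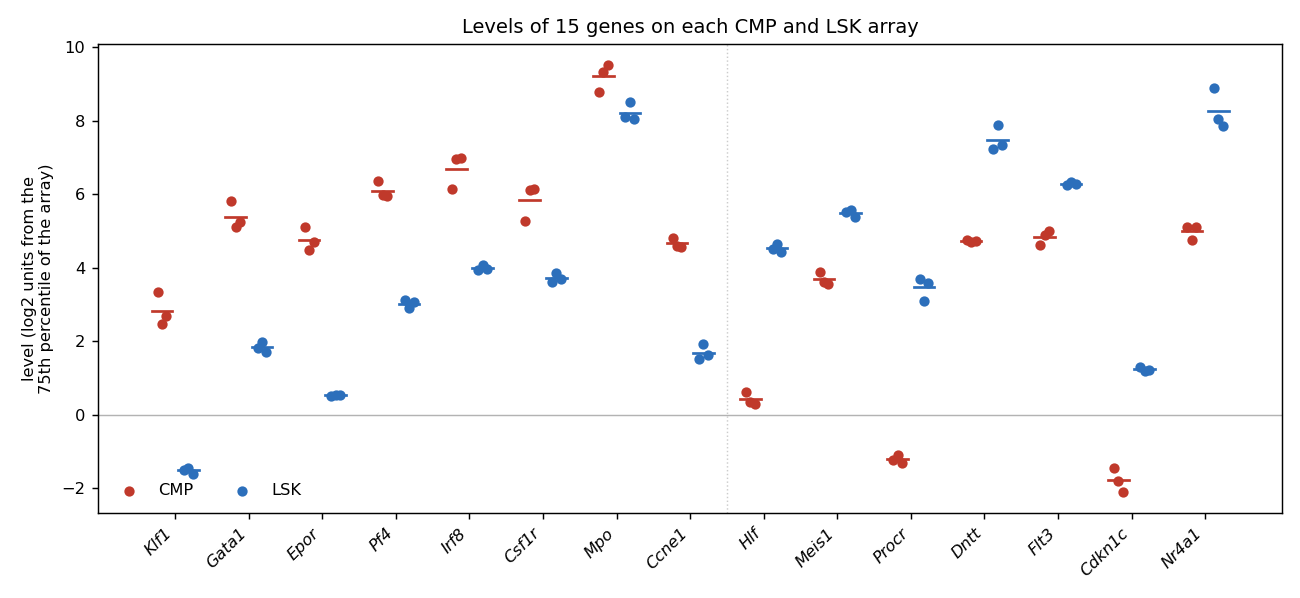
Levels of 15 genes (log2 units from the array's 75th percentile, vertical axis) on each of the 3 CMP arrays (red, left of each pair) and 3 LSK arrays (blue, right), with short lines at the means. Erythroid, platelet, myeloid and cyclin genes stand left of the dotted line and are higher in CMP, such as Klf1 at 2.46 to 3.34 in CMP and -1.61 to -1.45 in LSK. Stem cell, lymphoid, resting-state and immediate early genes stand right of it and are lower, such as Procr at -1.33 to -1.10 in CMP and 3.11 to 3.69 in LSK.

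Of 28 erythroid and megakaryocytic factors tested, 10 were higher in CMP (35.7%, against 26.9% of all tested genes), 3 were lower and 15 did not pass. The lower count was 1 without CMP array 2 or without LSK array 2. Gata1, the zinc finger factor that directs red cell and platelet genes, was at 5.82, 5.11 and 5.24 on CMP arrays and at 1.82, 1.98 and 1.71 on LSK arrays (3.55 ± 0.20, adjusted p = 9.68e-09). Klf1, the factor of beta-globin and red cell membrane genes, was at 3.34, 2.46 and 2.68 in CMP and -1.50, -1.45 and -1.61 in LSK (4.35 ± 0.27, adjusted p = 3.17e-08). No array of one population overlapped the other for either gene. Gfi1b, a repressor required in both lineages, differed by 2.05 ± 0.24, and Trim10, an erythroid RING finger gene, by 3.50 ± 0.32. The list median of 0.29 became -0.07 with quantile normalization and -0.04 with the percentile over detected probes, so it gives no direction for the list.

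Genes of the red cell surface and membrane skeleton, listed together with the erythropoietin receptor gene and the lipid kinase gene Sphk1, were mostly higher in CMP. Of 27 tested, 23 were higher in CMP and 2 lower, with a median of 3.99, and 3.76 and 3.63 within slides 3 and 4. Epor, the erythropoietin receptor, was at 5.11, 4.48 and 4.69 on CMP arrays and at 0.52, 0.52 and 0.55 on LSK arrays, a difference of 4.23 ± 0.21 (adjusted p = 4.37e-09). Kel, the Kell blood group endopeptidase, was at 3.76, 3.04 and 3.27 in CMP and -1.24, -1.56 and -1.34 in LSK (4.73 ± 0.21, adjusted p = 2.24e-09). Sphk1, the kinase that makes sphingosine 1-phosphate, was at 6.56, 5.91 and 5.97 in CMP and 1.30, 1.16 and 1.02 in LSK (4.99 ± 0.25, adjusted p = 3.87e-09). It had the largest increase of the called genes well above background on all 6 arrays. Rhag and Rhd, of the Rhesus complex, differed by 4.61 ± 0.31 and 4.65 ± 0.22, and Add2, a subunit of the membrane skeleton protein adducin, by 4.84 ± 0.24. The 2 lower members, named after their values were seen, were Bcam (-3.39), an adhesion molecule also found outside blood, and the glucose transporter gene Slc2a1 (-0.84). Without CMP array 1, on which these genes were highest, 19 members were higher, 1 was lower and the median was 3.72. With normexp background correction 22 were higher and 2 lower, and the median was 1.92. The lower count was 2 without LSK array 2 and 1 without any other single array.

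The promoters of this group were searched for AGATAA, a form of the site that GATA factors recognise, on both strands in the 250 bases before each RefSeq start. The motif stood in 8 of 24 windows of the 18 list genes that had one (33.3%), in 7 genes, since a pair of overlapping Sphk1 windows share a match, against 9.99% of all 32851 windows and 6.89% of the 14290 windows of tested genes. The share was 6.25% for heme and iron genes and 12.5% for erythroid factors. CCACACCC, a form of the Klf1 site, stood in 4.17% of the membrane gene windows, 0% of the heme windows and 3.20% of all windows. The promoters of Sphk1 and Kel are shown as the 2 members with the motif and the largest differences, in GRCm38.p6 from RefSeq, 5′ to 3′ on the gene's own strand, with the motif or its reverse complement in capitals. A match describes letters in a window, not a bound site.
Sphk1 (chr11:116532201-116532450, plus strand): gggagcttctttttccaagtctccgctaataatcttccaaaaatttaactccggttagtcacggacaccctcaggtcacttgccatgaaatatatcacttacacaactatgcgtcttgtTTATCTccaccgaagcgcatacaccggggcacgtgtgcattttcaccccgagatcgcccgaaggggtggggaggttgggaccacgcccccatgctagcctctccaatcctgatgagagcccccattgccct
Kel (chr6:41704326-41704575, minus strand): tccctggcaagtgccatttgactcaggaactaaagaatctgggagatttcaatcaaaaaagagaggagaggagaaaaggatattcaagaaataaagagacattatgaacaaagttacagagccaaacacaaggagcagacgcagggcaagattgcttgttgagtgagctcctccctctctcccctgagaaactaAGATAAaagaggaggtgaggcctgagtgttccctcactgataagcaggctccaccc
Counted back from the start, the match begins at position -131 in Sphk1 and -56 in Kel.

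Heme synthesis and iron handling genes were higher in CMP for 23 of 30 tested and lower for 1, with a median of 1.02. Cpox, the coproporphyrinogen oxidase of the pathway, was at 4.39, 4.10 and 3.98 on CMP arrays and 1.45, 1.49 and 1.54 on LSK arrays (2.66 ± 0.18, adjusted p = 6.09e-08). The ferrireductase gene Steap3 differed by 2.42 ± 0.19, the mitochondrial carrier gene Abcb6 by 2.27 ± 0.15, and Tfrc, the transferrin receptor, by 1.95 ± 0.17. Hmox1, which breaks heme down and is abundant in macrophages, was the lower member, at -0.81, -0.79 and -0.57 in CMP and 0.92, 0.44 and 0.30 in LSK. Of 5 hemoglobin genes tested, 4 were higher in CMP, by 0.60 to 1.32, but 2 were without LSK array 2, 2 with the percentile over detected probes and 1 with spike-in scaling. Hba-a1, an alpha chain gene, was at 4.23, 3.93 and 4.33 in CMP and 2.51, 2.86 and 3.16 in LSK, and its difference was 0.77 on slide 3 and 1.82 on slide 4. Hemoglobin probes read near-identical gene copies, so single members are uncertain, and the granulocyte mean of Hba-a1 was 8.28.

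Megakaryocyte and platelet genes went both ways. Of 30 tested, 14 were higher in CMP (46.7%) and 8 lower (26.7%), against 26.9% and 16.8% of all tested genes. The median was 0.58. Pf4, platelet factor 4, was at 6.35, 5.98 and 5.95 on CMP arrays and at 3.11, 2.89 and 3.06 on LSK arrays (3.07 ± 0.33, adjusted p = 5.8e-06). Vwf, which encodes von Willebrand factor and marks platelet-biased stem cells as well as endothelium, was at 3.18, 2.68 and 2.93 in CMP and 1.30, 1.35 and 1.25 in LSK (1.63 ± 0.22). Treml1, a platelet granule receptor, differed by 2.21 ± 0.32. F13a1, a coagulation factor subunit made by megakaryocytes and monocytes, differed by 2.88 ± 0.27. Thbs1, which encodes thrombospondin 1, was lower: it was at -3.34, -3.42 and -3.60 in CMP and 0.65, -0.95 and -0.71 in LSK (-3.12 ± 0.51), and its granulocyte mean was 7.48.

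Of 26 myeloid factors and receptors 8 were higher in CMP (30.8%) and 6 lower (23.1%), shares near the 26.9% and 16.8% of all tested genes, and 5 were higher without CMP array 2, CMP array 3 or LSK array 2. Irf8, the factor of monocyte and dendritic cell fate, was at 6.15, 6.95 and 7.00 on CMP arrays and at 3.94, 4.07 and 3.97 on LSK arrays (2.71 ± 0.22, adjusted p = 4.38e-07). Csf1r, the receptor of macrophage colony-stimulating factor, was at 5.28, 6.11 and 6.14 in CMP and 3.60, 3.85 and 3.69 in LSK (2.13 ± 0.26). Ly86, which encodes a partner of a Toll-like receptor relative, differed by 3.29 ± 0.25 and the chemokine receptor gene Cx3cr1 by 2.49 ± 0.23. All of these were lowest on CMP array 1 among the CMP arrays, and yet above every LSK array.

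Cebpa and Spi1 did not pass the test. Cebpa, needed for granulocyte-macrophage progenitors, was at 1.73, 2.30 and 2.56 in CMP and 1.68, 1.55 and 1.26 in LSK, a difference of 0.70 ± 0.52 (adjusted p = 0.328), though it passed with normexp background correction and when the erythroblast arrays were left out of the fit. Spi1, which encodes PU.1, was at -0.68, -0.28 and 0.46 in CMP and 0.18, 0.11 and -0.70 in LSK, with overlapping arrays and a difference of -0.03 ± 0.64 (adjusted p = 0.977). Cd33 and Nab2, a sialic acid receptor and a corepressor of Egr proteins, were lower, with differences of -2.46 ± 0.38 and -2.16 ± 0.33. The median of 0.19 turned to -0.04 with quantile normalization and -0.14 with the percentile over detected probes.

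Primary granule genes, made early in the granulocyte and monocyte line, were higher in CMP for 6 of 15 tested and lower for 0. These shares were 40.0% and 0%, against 26.9% and 16.8% of all tested genes, and the median was 0.55. Mpo, myeloperoxidase, was at 8.78, 9.33 and 9.51 on CMP arrays and at 8.09, 8.50 and 8.05 on LSK arrays (0.99 ± 0.35, adjusted p = 0.0374). Ctsg, the granule protease cathepsin G, was at 7.94, 8.61 and 8.57 in CMP and 6.76, 6.38 and 6.83 in LSK (1.72 ± 0.28, adjusted p = 0.000207). The count rested on few arrays: 3 members were higher without CMP array 2, without CMP array 3 or without LSK array 3, and 7 without CMP array 1, with medians of 0.47, 0.36, 0.60 and 0.93. The slide block left 4 higher, spike-in scaling 1, quantile normalization 1 (with 2 lower) and the percentile over detected probes 2 (with 1 lower). Mpo lost its call under all of these settings except without CMP array 1, and also without LSK array 1 or with no filter on dim probes.

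Genes of cell division were higher in CMP almost throughout. Of 47 DNA replication genes tested, 44 were higher and 0 lower (93.6%, median 0.89), of 40 mitotic genes 37 were higher and 0 lower (92.5%, median 1.02), and of 32 cyclins, cyclin-dependent kinases, E2F factors and Cdc25 phosphatases 26 were higher and 0 lower (81.3%, median 0.77). Ccne1, cyclin E1 of the entry into S phase, stood out at 4.82, 4.59 and 4.57 on CMP arrays and 1.51, 1.92 and 1.63 on LSK arrays (2.97 ± 0.15, adjusted p = 5.17e-09). Cdc6, the loader of the replicative helicase, was at 2.61, 2.44 and 2.28 in CMP and 0.45, 0.87 and 1.04 in LSK (1.66 ± 0.19). Mki67, the proliferation marker, was at 6.39, 6.46 and 6.35 in CMP and 4.83, 5.16 and 5.23 in LSK, a 1.33 ± 0.12 difference (adjusted p = 8.9e-07). Plk1, the mitotic kinase, differed by 1.54 ± 0.17, and E2f8 and Mybl2, both of the E2F and MuvB circuits, by 1.65 ± 0.10 and 1.53 ± 0.21. The medians within slides 3 and 4 were 0.94 and 0.97 for replication and 0.95 and 1.06 for mitosis. With spike-in scaling, 9 of 47 replication, 7 of 40 mitotic and 6 of 32 cyclin-group genes were called higher, although their medians were 1.23, 1.36 and 1.12.

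TTTNNCGC, a short form of the E2F site searched on both strands in the 250 bases before the start, stood in 8 of 44 windows of replication genes (18.2%) and 8 of 30 windows of the cyclin group (26.7%, 7 genes), against 6.21% of windows of tested genes and 4.28% of all windows. The Cdc6 promoter is given as the replication gene with the motif and the largest difference (GRCm38.p6, RefSeq, motif on the reverse strand in capitals, beginning at position -138 from the start).
Cdc6 (chr11:98907901-98908150, plus strand): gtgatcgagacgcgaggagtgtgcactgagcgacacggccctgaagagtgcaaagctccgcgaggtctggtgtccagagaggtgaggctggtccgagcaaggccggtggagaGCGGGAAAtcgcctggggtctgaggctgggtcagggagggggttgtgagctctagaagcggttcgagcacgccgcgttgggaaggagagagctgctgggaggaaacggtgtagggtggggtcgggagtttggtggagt

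Inhibitors of cyclin-dependent kinases and genes of the resting state were lower in CMP for 14 of 24 tested and higher for 3, with a median of -0.75. With spike-in scaling 2 were lower and 0 higher, with a median of -0.40. Cdkn1c, the kinase inhibitor p57 that keeps stem cells at rest, was at -1.45, -1.82 and -2.10 on CMP arrays and at 1.30, 1.18 and 1.22 on LSK arrays (-3.02 ± 0.32, adjusted p = 4.92e-06). Trp53inp1, a stress gene downstream of p53, differed by -1.89 ± 0.13, and the antiproliferative gene Btg2 by -1.38 ± 0.17. The largest difference of the list was that of Nr4a1 (-3.26). Nr4a1 and Btg2 are also members of the immediate early list described below, so the lists are not separate results. The higher members, named after their values were seen, were Cdkn2c (1.02), Rb1 (0.87) and Rbl1 (0.45). The granulocyte mean was above the LSK mean in 7 of the 14 lower members. Myc, a driver of growth, was at 4.69, 4.26 and 4.37 in CMP and 3.67, 3.99 and 3.92 in LSK, and its difference of 0.58 ± 0.48 did not pass the test (adjusted p = 0.375), though its arrays did not overlap and it passed when CMP and LSK arrays were fitted alone.

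Mitochondrial energy genes were higher in CMP as a block. Of 54 subunits of the respiratory chain and ATP synthase, 50 were higher and 0 lower (92.6%, median 0.84), and of 27 genes of the tricarboxylic acid cycle 21 were higher and 0 lower (77.8%, median 0.69). Ndufab1, the acyl carrier of complex I, was at 2.27, 1.97 and 2.13 on CMP arrays and 0.42, 0.23 and 0.20 on LSK arrays (1.84 ± 0.15, adjusted p = 4.06e-07). Atp5g1, a subunit of the ATP synthase rotor, differed by 1.49 ± 0.12, cytochrome c (Cycs) by 1.30 ± 0.10, and fumarate hydratase (Fh1) by 1.15 ± 0.11. Quantile normalization left 34 and 12 members higher in the 2 lists, and spike-in scaling 5 and 1, with medians of 1.18 and 1.04 under the spike-in scale.

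Glycolysis genes showed no such shift. Of 32 tested, 9 were higher (28.1%) and 7 lower (21.9%) in CMP, near the 26.9% and 16.8% of all tested genes. With 1 array left out, 5 to 9 were higher. The median of 0.18 lay at that of all features, and it turned to -0.03 with quantile normalization and -0.15 with the percentile over detected probes. Single isozyme genes of the list had large differences, with 1 member higher and 5 lower by 2-fold or more. Pklr, the pyruvate kinase of red cells and liver, was at -0.03, -0.77 and -0.53 in CMP and at -4.51, -4.47 and -5.34 in LSK, where 2 of 3 arrays were well above background (4.33 ± 0.32). Ldhb, the heart-type lactate dehydrogenase subunit, was at 1.03, 1.36 and 1.50 in CMP and 4.16, 4.02 and 3.96 in LSK (-2.75 ± 0.32). Aldoc, an aldolase best known from brain, was at 0.87, 0.46 and 0.44 in CMP and 3.54, 3.39 and 3.44 in LSK (-2.87 ± 0.13, adjusted p = 3.48e-09).

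Growth-related synthesis genes were higher in CMP. Of 47 ribosome biogenesis factors 41 were higher and 0 lower (median 0.80), of 33 purine, pyrimidine and one-carbon genes 24 were higher and 0 lower (median 0.73), and of 20 cytosolic aminoacyl-tRNA synthetases 17 were higher and 0 lower (median 0.71). Bysl, a factor of the small ribosomal subunit, was at 4.15, 3.92 and 4.05 in CMP and 2.50, 2.48 and 2.27 in LSK (1.62 ± 0.12, adjusted p = 1.59e-07). Mthfd2, the mitochondrial folate enzyme, was at 1.50, 1.51 and 1.38 in CMP and -0.31, -0.18 and -0.22 in LSK (1.70 ± 0.32). Hars, the histidine synthetase gene, differed by 1.21 ± 0.18. Under spike-in scaling 5, 3 and 1 members of these lists were called higher and 0 lower. Cholesterol synthesis and uptake genes had 4 of 27 higher and 4 lower (14.8% each, against 26.9% and 16.8% of all tested genes). With 1 array left out, 1 to 4 were lower. The called members included Fdps (1.25 ± 0.18), a synthase of the isoprenoid chain, and Abcg1 (-1.22 ± 0.31), a sterol exporter.

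**Figure D3:**
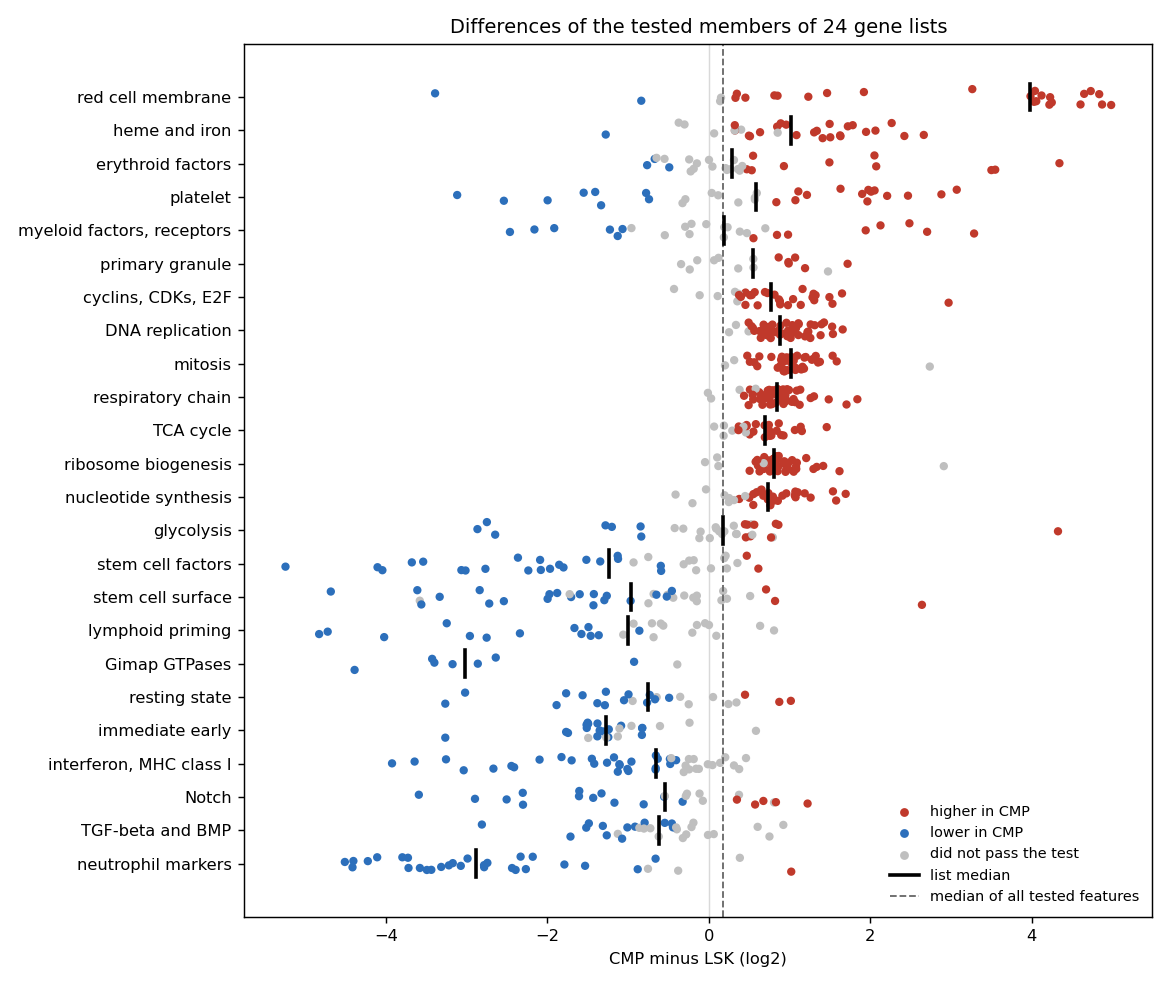
Difference between CMP and LSK (log2, horizontal axis) of every tested member of 24 gene lists, with red points higher in CMP, blue points lower, grey points that did not pass the test, black bars at list medians and the dashed line at the median of all tested features (0.17). Red cell membrane genes reach a median of 3.99. Replication, mitosis and respiratory chain genes form compact clouds near 0.89, 1.02 and 0.84, and stem cell, Gimap, immediate early and neutrophil lists lie to the left.

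Immediate early genes, which cells switch on within minutes of a stimulus, handling included, were lower in CMP for 17 of 25 tested and higher for 0, with a median of -1.27 (-1.0 on slide 3 and -1.58 on slide 4). Nr4a1, an orphan nuclear receptor, was at 5.12, 4.76 and 5.11 on CMP arrays and at 8.89, 8.04 and 7.85 on LSK arrays (-3.26 ± 0.53, adjusted p = 0.000205). Fosb, of the AP-1 family, was at 3.26, 3.17 and 3.47 in CMP and 5.57, 4.71 and 4.15 in LSK (-1.51 ± 0.35). The LSK arrays spread more than the CMP arrays for both genes, with LSK array 1 the highest. The granulocyte mean was above the LSK mean in 10 of the 17 lower members, whose part in the result was not tested. With spike-in scaling 1 of the 25 was lower.

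Class I antigen presentation and interferon response genes were lower in CMP for 27 of 42 tested and higher for 0, with a median of -0.66. Oas2, a sensor of double-stranded RNA, was at -0.24, -0.79 and -0.82 on CMP arrays and at 3.47, 2.72 and 2.89 on LSK arrays (-3.64 ± 0.21, adjusted p = 1.16e-08). Ifit3, an antiviral gene, was at -4.85, -5.00 and -5.47 in CMP, where 1 of 3 arrays was well above background, and at -1.06, -1.56 and -0.92 in LSK (-3.92 ± 0.32). Ifit1, a relative of it, was at -3.18, -3.59 and -3.64 in CMP and -0.90, -1.0 and -0.51 in LSK (-2.67 ± 0.20). The granulocyte mean was above the LSK mean in 13 of the 27 lower members. With spike-in scaling 8 were lower. Of 10 class II genes, 2 were lower (20.0%), near the 16.8% of all tested genes. They were H2-Ob (-1.74 ± 0.28) and H2-Oa (-0.78 ± 0.27), which encode the chains of the modulator H2-O. H2-Oa lost its call with the slide block, the deposited series values, no filter on dim probes, spike-in scaling, and without CMP array 1, CMP array 2, LSK array 1 or LSK array 2, and with spike-in scaling 0 class II genes were lower.

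The core of the interferon-stimulated response element, GAAA and again GAAA with any 2 bases between them, searched on both strands, stood in 14 of 41 windows of these genes (34.1%), against 2.81% of windows of tested genes and 2.98% of all windows. The promoters of Ifit3 and Ifit1 are shown as the members with the motif and the largest differences (GRCm38.p6, RefSeq, reverse complement of the motif in capitals, 2 matches each).
Ifit3 (chr19:34583279-34583528, plus strand): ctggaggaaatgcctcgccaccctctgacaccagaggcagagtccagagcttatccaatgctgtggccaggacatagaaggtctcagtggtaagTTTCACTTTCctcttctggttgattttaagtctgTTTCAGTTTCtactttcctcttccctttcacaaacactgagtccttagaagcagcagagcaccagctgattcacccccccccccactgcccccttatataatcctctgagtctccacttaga
Ifit1 (chr19:34640639-34640888, plus strand): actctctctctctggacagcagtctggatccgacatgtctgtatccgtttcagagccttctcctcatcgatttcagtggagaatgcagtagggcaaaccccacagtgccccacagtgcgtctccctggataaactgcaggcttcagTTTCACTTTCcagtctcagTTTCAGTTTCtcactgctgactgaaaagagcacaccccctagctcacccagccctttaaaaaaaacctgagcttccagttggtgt
The matches begin at positions -156 and -122 in Ifit3 and -104 and -85 in Ifit1. TGACGTCA, the site of CREB-type factors, stood in 3 of 25 windows of immediate early genes (12.0%), against 2.30% of windows of tested genes and 1.55% of all windows.

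Among signalling pathways, Notch genes were lower for 13 of 25 tested (52.0%) and higher for 5 (20.0%), with a median of -0.54. Of all tested genes, 16.8% were lower and 26.9% higher. Hes1, a target repressor of Notch, passed the background flag on 0 of 3 CMP and 3 of 3 LSK arrays and was at least 4.94-fold lower in CMP (adjusted p = 2.64e-05). The ligand gene Jag2 was at -2.42, -2.01 and -2.14 in CMP and 0.89, -0.18 and -0.38 in LSK (-2.30 ± 0.45), and Mfng, a glycosyltransferase that tunes the receptor, differed by -1.61 ± 0.12. Of 29 TGF-beta and BMP genes 13 were lower and 0 higher (median -0.62). The inhibitory Smad genes Smad6 and Smad7 were among them, at -1.71 ± 0.18 and -1.52 ± 0.24, as was Ltbp3, which anchors latent TGF-beta (-1.49 ± 0.22). With spike-in scaling 5 of the Notch and 1 of the TGF-beta and BMP genes were lower.

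Cytokine receptors were mixed, with 6 of 38 higher (15.8%) and 11 lower (28.9%), against 26.9% and 16.8% of all tested genes. Their median of -0.14 turned to 0.20 with spike-in scaling. Il1rl1, the interleukin-33 receptor, was at 3.28, 2.89 and 2.80 in CMP and -0.05, 0.11 and 0.15 in LSK (2.92 ± 0.14, adjusted p = 3.87e-09). Il18r1, the interleukin-18 receptor, was at -2.22, -2.36 and -2.59 in CMP and 0.11, 0.57 and 0.63 in LSK (-2.83 ± 0.47), and Il12rb1, shared by the receptors for interleukins 12 and 23, differed by -2.22 ± 0.21. Of 18 integrin subunits, 4 were higher and 4 lower (22.2% each), near the 26.9% and 16.8% of all tested genes. The higher count was 2 without CMP array 1, CMP array 3, LSK array 1 or LSK array 3, and 0 with quantile normalization or spike-in scaling and 1 with the percentile over detected probes. Itga9 (-2.79 ± 0.26) and Itgb5 (-1.49 ± 0.23) were lower, and Itgb3, the beta subunit of the platelet fibrinogen receptor, was higher (1.22 ± 0.32), a call lost with quantile normalization.

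Imprinted genes, expressed from 1 parental allele and several of them known from resting stem cells, were lower for 7 of 17 tested and higher for 2. These shares were 41.2% and 11.8%, against 16.8% and 26.9% of all tested genes. The higher count was 1 without CMP array 2 or without LSK array 2. Meg3, a maternally expressed long noncoding RNA, was at -6.60, -4.89 and -5.88 on CMP arrays, 0 of 3 well above background, and at 0.52, -0.24 and 0.12 on LSK arrays. It was at least 33.9-fold lower in CMP (adjusted p = 3.53e-07). Dlk1, a paternally expressed neighbour in the same domain, was at -3.44, -3.79 and -3.38 in CMP and -0.97, -1.19 and -1.28 in LSK (-2.39 ± 0.25). Kcnq1ot1, the antisense RNA of another domain, was higher (1.17 ± 0.26). The remaining 11 imprinted genes on the array were not well above background on all arrays of either population.

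Of 15 writers, erasers and readers of DNA methylation, 7 were higher (46.7%) and 3 lower (20.0%), against 26.9% and 16.8% of all tested genes. Dnmt1, the maintenance enzyme, differed by 0.76 ± 0.20 and its partner Uhrf1 by 0.74 ± 0.14, while Tet1, an oxidase of methylated cytosine, differed by -0.77 ± 0.27. Dnmt1 lost its call with the percentile over detected probes, Uhrf1 with quantile normalization, and Tet1 with quantile normalization, the slide block, the deposited series values, no filter on dim probes, and without CMP array 1, CMP array 3, LSK array 2 or LSK array 3. The list's median of 0.32 turned to -0.01 with the percentile over detected probes. Aldehyde dehydrogenase and glutathione genes had 13 of 31 higher (41.9%) and 9 lower (29.0%), against 26.9% and 16.8% of all tested genes. With 1 array left out, 5 to 8 were lower. Aldh1a7, a close relative of the retinaldehyde dehydrogenase gene Aldh1a1, was at 3.10, 2.30 and 2.40 in CMP and -2.0, -1.68 and -2.01 in LSK (4.50 ± 0.25, adjusted p = 1.11e-08), and Aldh1a1 itself differed by 1.59 ± 0.26. The 2 genes are near-identical copies, so their probes may share signal.

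Among 18 known long noncoding RNAs tested, 6 were higher (33.3%) and 7 lower (38.9%) in CMP, against 26.9% and 16.8% of all tested genes. The counts were 3 and 4 without CMP array 1, CMP array 2 or LSK array 2, and 1 and 1 with spike-in scaling. Snhg3, a host of small nucleolar RNAs, was at 4.95, 4.71 and 4.77 in CMP and 3.09, 3.15 and 3.16 in LSK (1.68 ± 0.10, adjusted p = 1.7e-08). Mir22hg, the host transcript of miR-22 on chromosome 11, was at -4.85, -3.93 and -4.01 in CMP and -2.06, -2.34 and -2.88 in LSK (-1.84 ± 0.36, adjusted p = 0.00105), and at 2.25 in granulocytes. The array measured the host and not the mature forms, which are given here because their seeds (bases 2 to 8, in capitals) define what the locus can target (RefSeq, GRCm38.p6, plus strand).
mmu-miR-22-5p: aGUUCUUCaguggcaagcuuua
mmu-miR-22-3p: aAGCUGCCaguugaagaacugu

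Neutrophil markers, which a lineage-negative gate should leave out, had higher signals on the LSK arrays. Of 32 neutrophil genes of the secondary and tertiary granules and surface, 28 were lower in CMP and 1 higher, with a median of -2.89. The higher gene, named after its values were seen, was Clec4d (1.02), a C-type lectin receptor. Mmp9, the gelatinase of tertiary granules, was at -4.45, -2.33 and -3.41 in CMP and 1.45, 1.06 and 0.82 in LSK (-4.51 ± 0.48). Retnlg, a secreted resistin-like protein of neutrophils, was at -0.11, 0.78 and 0.60 in CMP and 5.03, 4.48 and 5.02 in LSK (-4.41 ± 0.30). Over the 28 lower genes, the LSK level was 0.739% to 57.5% of the granulocyte level with a median of 3.53%, and the CMP level 0.0618% to 12.7% with a median of 0.524%. The summed signal of the list, relative to the 75th percentile, was 337 to 552 on CMP arrays and 1561 to 1802 on LSK arrays.

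Lists of other cell types went in both directions. Of 21 T and NK cell markers 13 were lower in CMP and 0 higher, with summed signals of 47.2 to 53.5 in CMP and 76.8 to 89.7 in LSK. Of the 23 on the array, Cd8a and Cd8b1 were the 2 not well above background on any of the 6 arrays, whereas Cd3e and Cd4 were well above it on all 6. Of 17 B cell markers 8 were lower, with sums of 43.4 to 58.9 in CMP and 65.9 to 75 in LSK, and Pax5, Ebf1, Bank1 and Blk were not above background in CMP. Eosinophil, basophil and mast cell markers were lower for 11 of 19 and higher for 3, with sums of 35.5 to 48.2 in CMP and 88.5 to 113 in LSK. Macrophage markers were lower for 9 of 15 and higher for 2, although their sums were 73.4 to 85.6 in CMP and 56.6 to 64.3 in LSK. Of the 19 on the array, Cd163, Mertk, Timd4 and Siglec1 were the 4 not well above background on any of the 6 arrays. Of 19 monocyte and dendritic cell markers, 8 were higher in CMP (42.1%) and 3 lower (15.8%), against 26.9% and 16.8% of all tested genes. The sums of these markers were 465 to 660 in CMP and 375 to 402 in LSK. Of 13 endothelial and stromal markers, 2 were higher (15.4%) and 3 lower (23.1%), against 26.9% and 16.8% of all tested genes. Their sums were 25.4 to 30.9 in CMP and 17.2 to 22.7 in LSK. The granulocyte mean was above the LSK mean in 9 of the 13 lower T and NK markers and 7 of the 8 lower B cell markers. It was above in 11 of the 11 lower eosinophil, basophil and mast cell markers and 9 of the 9 lower macrophage markers. For the lower monocyte and dendritic cell markers this held in 2 of 3, and for the endothelial and stromal ones in 1 of 3.

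The lymphoid, immediate early and interferon lists share members or cell types with these markers. Over all 3252 features lower in CMP, 1236 (38.0%) had a granulocyte mean above their LSK mean, against 46.6% of all tested features. The lower features were picked partly for a high LSK mean, which by itself lowers their share. The shares therefore cannot decide on a part of granulocytes. The part of other cells in the lower genes was not tested.

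**Figure D4:**
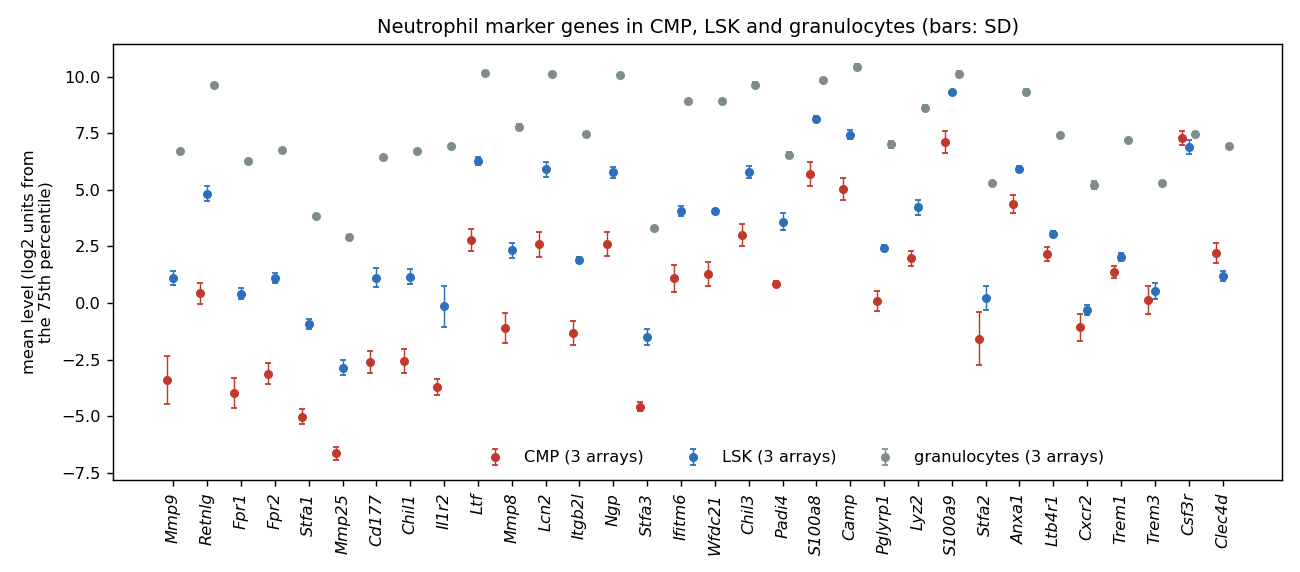
Mean level (log2 units from the 75th percentile, vertical axis) of 32 neutrophil marker genes in CMP (red), LSK (blue) and granulocytes (grey), 3 arrays each with SD bars, ordered by the difference between CMP and LSK. CMP lie below LSK for most genes, and both lie below granulocytes, for example Mmp9 at -3.40 in CMP, 1.11 in LSK and 6.70 in granulocytes.

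The single genes with the largest differences, among those with non-overlapping arrays well above background throughout, held members and non-members of these lists. Next to Sphk1, Ermap, Add2 and Kel, the most increased genes in CMP were Paqr9 (4.91 ± 0.29), a membrane receptor of the progestin and adipoQ family, Spon2 (4.89 ± 0.25), an extracellular matrix protein, Tlcd4 (4.88 ± 0.43), Pdia2 (4.81 ± 0.22), a disulfide isomerase, Btnl10 (4.71 ± 0.36), a butyrophilin-like gene, and Atp1b2 (4.70 ± 0.35), a sodium pump subunit. Paqr9 was at 1.61, 0.87 and 1.13 on CMP arrays and -3.75, -3.61 and -3.75 on LSK arrays. The most decreased gene was Sgsm1, a regulator of small GTPases, at -2.94, -3.53 and -3.68 in CMP and 1.93, 1.91 and 1.90 in LSK (-5.30 ± 0.28). Gas6, the ligand of the Tyro3, Axl and Mer receptors, was at -2.33, -2.63 and -2.42 in CMP and 2.69, 2.66 and 2.66 in LSK (-5.13 ± 0.41). Trib3, a pseudokinase of the stress response, was at -2.54, -2.71 and -2.53 in CMP and 1.67, 1.97 and 2.03 in LSK (-4.48 ± 0.12, adjusted p = 2.39e-11). Wfdc18, a protease inhibitor gene (-5.11 ± 0.28), Ccr9, the chemokine receptor of gut-homing lymphocytes (-4.72 ± 0.26), and Myl10, a myosin light chain gene (-4.77 ± 0.33), complete this end with Ltb, Procr, Nkx2-3 and Mmp9.

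Some transcripts passed the background flag in only one population. In CMP alone 66 called features were well above background on 3 of 3 arrays with 0 of 3 in LSK, 41 of them genes. In LSK alone 370 were, 248 of them genes. Among all 24174 tested features, called or not, 75 and 408 had these patterns. The flag passed 54.1% to 62.0% of spots on CMP arrays and 58.4% to 66.3% on LSK arrays. How far this shaped the counts was not tested. The largest bounds above LSK belonged to Acsl6, an acyl-CoA synthetase (at least 21.4-fold higher in CMP), Asb17 (at least 21.3-fold), Agtr1a, an angiotensin receptor (at least 20.2-fold), Dmtn, the membrane skeleton protein dematin (at least 15.7-fold), and Sfrp4, a secreted Wnt inhibitor (at least 14.7-fold). Acsl6 was at -0.15, -0.98 and -0.81 in CMP and -6.20, -5.62 and -7.11 in LSK. On the other side stood Wfdc2 (at least 36.4-fold lower in CMP), a secreted protease inhibitor, and Meg3, followed by Cstdc4 and Bpifb5 (at least 21.5- and 18.4-fold). Wfdc2 was at -5.73, -6.36 and -6.94 in CMP and 0.49, -0.11 and 0.33 in LSK.

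The custom noncoding features, which the study added to the array, were called less often than all tested features. Of 1317, 947 were tested and 281 called (29.7%, against 36.8% of all tested features). In CMP, 161 were higher (17.0%, against 23.3%) and 120 lower (12.7%, against 13.5%), with a median difference of 0.08. Among them 61 higher and 76 lower features differed by 2-fold or more. In 183 of the 281 all 3 probes were called in the same direction, in 46 only a pair of them, in 51 a single one and in 1 none when probes were tested one by one, and 0 features had probes called in opposite directions. The 4 sets of custom features, numbered here in the order of their design identifiers, had 61 of 136, 10 of 44, 84 of 295 and 126 of 472 tested features called. In the first 51 were higher and 10 lower, and in the third 35 were higher and 49 lower.

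TCONS_00312140 had the largest difference among custom features. It was at 2.72, 2.16 and 2.17 on CMP arrays and -2.77, -2.24 and -2.42 on LSK arrays (4.83 ± 0.21, adjusted p = 1.93e-09), and its 3 probes gave 4.71 to 4.83. TCONS_00060256 (3.96 ± 0.51), TCONS_00324195 (3.86 ± 0.21), TCONS_00361656 (3.61 ± 0.31) and TCONS_00108378 (3.07 ± 0.16) followed. TCONS_00371625 was the most decreased, at -2.40, -2.81 and -2.81 in CMP and 1.25, 1.06 and 1.21 in LSK (-3.85 ± 0.33, adjusted p = 6.15e-07). TCONS_00375085 was at -0.21, -0.37 and 0.03 in CMP and 3.80, 3.43 and 3.58 in LSK (-3.79 ± 0.57), and at 9.26 in granulocytes. TCONS_00088613, TCONS_00361543 and TCONS_00379845 differed by -3.55 ± 0.32, -3.38 ± 0.70 and -2.81 ± 0.27. Their positions and sequences were not analysed here.

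**Figure D5:**
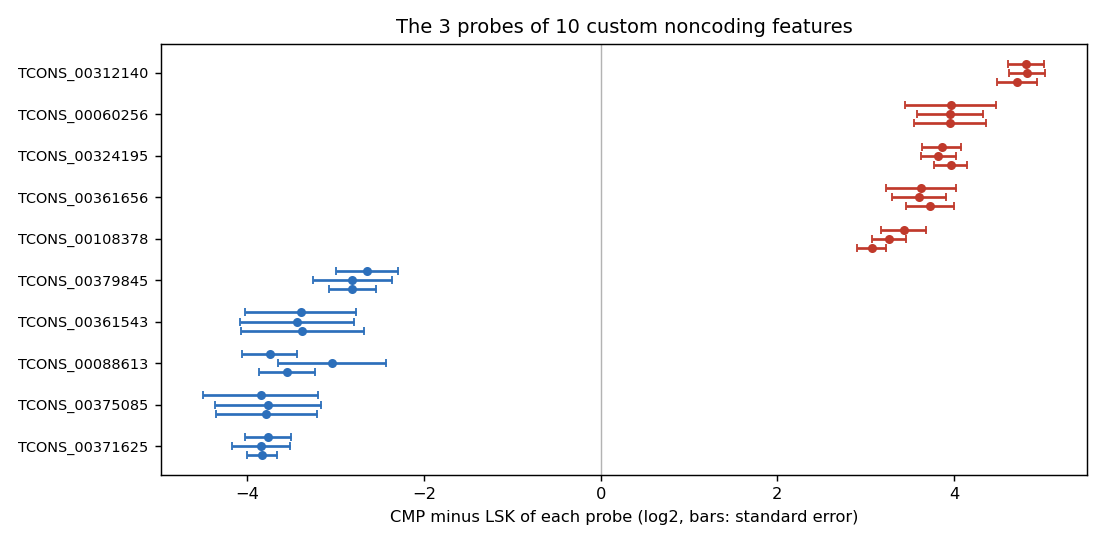
Difference between CMP and LSK (log2, horizontal axis, bars are standard errors) of each of the 3 probes of 10 custom noncoding features, the 5 most increased and 5 most decreased under the naming rule. Red probes are higher in CMP and blue probes lower. The 3 probes of a feature lie close together, such as 4.71 to 4.83 for TCONS_00312140.

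Catalogue probes for intergenic noncoding regions, named on the array by mm9 coordinates, were called less often, 462 of 3041 (15.2%), 300 higher (9.87%) and 162 lower (5.33%). The largest increase was at chr5:77084398-77086144, named with the letter R, which was at 2.42, 1.77 and 1.52 in CMP and -2.23, -1.54 and -2.07 in LSK (3.85 ± 0.24). The regions chr12:32781477-32808567 (2.99 ± 0.16) and chr8:94849929-94870274 (2.31 ± 0.45), both with the letter R, followed. All 3 of the most decreased regions lie side by side on chromosome 6. They are chr6:31170350-31287353 (letter F), at -2.88, -3.47 and -3.36 in CMP and 0.31, -0.05 and 0.18 in LSK (-3.38 ± 0.42), chr6:31233512-31241062 (letter F, -3.08 ± 0.68), which lies inside the first, and chr6:31115515-31168433 (letter R, -2.86 ± 0.46). For the second of these CMP array 3 was at -0.72, against -2.90 and -3.34 on arrays 1 and 2.

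Where genes had several probes, they mostly moved together. Of 3636 genes with more than 1 probe tested, 1042 had at least 2 probes called in one direction and none in the other, and 11 had probes called in both directions. One of those 11, chosen after its values were seen, is Vangl1, a planar polarity gene with probes at -0.73 and 0.72. The brightest probe stands for the gene in all counts above.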

How the data were processed

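Total RNA of 3 CMP and 3 LSK samples was measured on single-colour Agilent arrays, 6 of 19 used together. The deposited files hold spot intensities as Feature Extraction 11.5.1.1 wrote them, background-subtracted as processed signal, per the file headers. They name the green channel, whereas the labels name Cy5. Each intensity was divided by the array's 75th percentile over non-control spots and put on a log2 scale, which is not the authors' deposited scale. Spots flagged as outliers were left out, spots of a probe were averaged, and a feature was represented by its brightest probe. No spot was saturated.

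limma 3.58.1 in R 4.3.3 fitted the 7 cell types over all 19 arrays with empirical Bayes moderation. Every adjusted p is from this fit with Benjamini-Hochberg adjustment over 24174 tested features, and a call also needed the higher population to be well above background on all its arrays. The fit was also run on simulated independent values without slide or array effects, so that run cannot speak to such effects in these data. Members and gene lists were chosen with earlier results of these data known. Genes of the lists missing from the array were not analysed here. Named genes were the largest differences with non-overlapping arrays, the largest bounds, up to 6 called members of each list with the largest differences, and a set of well-known regulators and markers. Promoters and miRNAs came from RefSeq tables. Replicate numbers were not treated as pairs. Deviations of same-numbered CMP and LSK arrays from their population means correlated at -0.44, -0.19 and -0.40, and those on the same slide at 0.17 and 0.45. CMP array 1 correlated at 0.23 with LSK array 2 and with LSK array 3, which lay on other slides. Deviations from a mean of 3 arrays cancel within a population, so these correlations constrain one another and cannot decide on pairing. Alternatives were normexp background correction (on the median spot signal), other scalings, the deposited series intensities of the authors, other filters, other probe rules, other sets of arrays, and slide or replicate blocks. The number of arrays, 3 a population, limits the precision. Some items are not reported here.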

Additional observations from a re-analysis of the deposited data

How the results depend on the processing

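With the settings of the report 8889 features were called. Scaling on spike-in controls gave 1703 calls (769 higher and 934 lower in CMP) and 68 custom features, against 281. Requiring a 2-fold difference left 3584 (1444 higher, 2140 lower) and 137 custom features. Quantile normalization gave 3447 higher, and the percentile over detected probes 2579 higher and 5395 lower. The cause of these shifts was not tested. Leaving out 1 array at a time gave 7404 to 8081 calls, 4633 to 5026 higher, 2737 to 3055 lower and 218 to 245 custom features. The replicate block gave 8612 calls (5414 higher, 3198 lower), and since replicate numbers were not treated as pairs it is given here alone. Of 266 named features, 259 were called, 76 lost the call under spike-in scaling and 0 reversed there among the called.

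3 genes that never passed the test changed sign. Gata2 was at -0.061 with quantile normalization and -0.10 with the percentile over detected probes. Slamf1 was at 0.00032 with normexp correction and 0.20 with spike-in scaling, and from -0.52 to 0.070 without 1 array. Spi1 was at 0.31 with spike-in scaling and from -0.34 to 0.23 without 1 array. Signal over background limits the dimmest genes: bounds are given where 0 of 3 arrays of a population were well above it, and differences where only some were are less exact than their standard errors. Genes of the report that lost the call with spike-in scaling include Meis1, Flt3, Fosb, Btg2, Trp53inp1, Smad6, Smad7, Mfng, Mir22hg, Kcnq1ot1, Hmox1, Fh1, Fdps, Uhrf1, Dnmt1, Tet1, H2-Oa, H2-Ob, Itgb3, Itgb5, Ltbp3, Abcg1 and Mpo.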
